A study of Mus musculus with 5 samples.

Results

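The cells described here are the collecting duct intercalated and transitional cells of adult mouse kidney, taken as every cell that the authors' annotation names CD IC/CD Trans. They were 354 of 14197 cells in 5 droplet-based single-cell RNA libraries. The libraries were 3 from *Fame* knockout mice (KO female, KO male and KO mix, the last pooled from males and females) and 2 from wild type littermates (WT female and WT mix, the last also pooled). All mice were on the FVB/Ant background. In the knockout, CRISPR/Cas9 placed stop codons in tandem after the start codon of *Fame* (also called *Ccdc198*), which the deposited matrix lists as ccdc198 and the GRCm38 annotation places at chr14:49219588-49245474, minus strand. Each library came from perfused kidneys digested with collagenase P and trypsin. The number of mice in each library is not stated, so p-values measure the spread between libraries, and there was no library of wild type males to compare. The annotation places KO female, KO male and WT female in run 2, and KO mix and WT mix in run 3, without saying what a run was. The run and the pooling of sexes thus cannot be told apart.

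Intercalated cells are the acid-base cells of the collecting duct, scattered among principal cells, which take up sodium and water. Type A cells secrete acid through an apical vacuolar proton pump (V-ATPase) and return bicarbonate to blood through the basolateral exchanger *Slc4a1*, whereas type B cells secrete bicarbonate through the apical exchanger *Slc26a4* (pendrin). The forkhead factor *Foxi1* is required for both types in mice, and Notch signalling between neighbours favours the principal fate. Transitional cells carry transcripts of both principal and intercalated cells.

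KO female held 63 of these cells, KO male 49, KO mix 92, WT female 88 and WT mix 62, with a median of 4094 to 7455 UMIs (counted RNA molecules) per cell. Their summed UMIs ranged from 259074 in WT mix to 739301 in WT female. The run 3 libraries stood apart in quality, with medians of 28.1% (KO mix) and 29.6% (WT mix) mitochondrial UMIs, against 11.1% to 12.7% in the 3 libraries of run 2. Haemoglobin UMIs were in 100% of the cells of each run 2 library, in 1.09% of the cells of KO mix and in 0 of 62 cells of WT mix. The Scrublet doublet score had medians of 0.115 to 0.173 and a highest value of 0.411, and no cell was removed for it. Of 14172 barcodes, 25 occurred in more than 1 library, and none of them belonged to these 354 cells.

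The annotation matched its defining markers, with the proton pump at its core. Levels are given as CPM (UMIs per 1000000 UMIs summed over the cells of a library) and are a description without a test, since the clusters were made from these genes. *Atp6v1g3*, the kidney-type G subunit of the pump, reached 6026, 7464 and 3030 CPM in KO female, KO male and KO mix, and 6487 and 2737 CPM in WT female and WT mix. The 2 libraries of run 3 were the lowest, yet the mean was 5149 ± 2135 CPM (SD, n = 5 libraries) against 85.8 CPM in the next cell type, the distal convoluted tubule (DCT). At least 1 *Atp6v1g3* UMI was counted in 347 of 354 cells (98.0%, exact 95% interval 96.0% to 99.2%, counting error only). That share was 4.68% in glomerular endothelium, a type that should lack the gene, where the median depth was 1679.5 UMIs against 5010 UMIs in the intercalated cells. With every cell thinned to 1000 UMIs the shares were 89.5% and 2.34%.

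Of 2700 genes with a mean of at least 50 CPM, 184 were highest in these cells among the 19 annotated types and 23 exceeded every other type more than 5 times. The 20 genes with the largest ratio included both exchangers. *Slc26a4* had 431 ± 50.5 CPM against 6.98 CPM in DCT, the next type. *Slc4a1*, also known as band 3 of red blood cells, had 284 ± 89.2 CPM against 9.35 CPM in the cells annotated RBC. *Aqp6*, a water channel of intracellular vesicles in type A cells, had 556 ± 210 CPM against 25.3 CPM in principal cells (CD PC). *Slc4a9*, a bicarbonate transporter used below as a type B gene, had 247 ± 44.0 CPM against 5.15 CPM in CD PC. *Insrr*, a receptor that senses alkaline medium, had 97.8 ± 11.1 CPM. On GRCm38, *Atp6v1g3* lies at chr1:138273738-138289462 (plus strand), *Slc4a1* at chr11:102348824-102366203 and *Slc26a4* at chr12:31519827-31559969 (both minus strand).

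*Foxi1* had 116, 123 and 285 CPM in KO female, KO male and KO mix, 123 and 340 CPM in WT female and WT mix, and its next type, DCT, had 5.67 CPM. It was high in the 2 libraries of run 3 and low in the other 3. *Hmx2*, a homeobox gene, had 253 CPM in KO mix and 185 in WT mix, against 33.8 to 39.3 CPM in the libraries of run 2. The other genes among these 20 included the pump subunits *Atp6v0d2* (555 ± 61.5 CPM) and *Atp6v1c2* (358 ± 85.9 CPM), the 2-oxoglutarate receptor *Oxgr1* (262 ± 65.5 CPM), the receptor tyrosine kinase *Kit* (187 ± 45.2 CPM) and the adhesion protein *Hepacam2* (194 ± 29.1 CPM). The highest ratio of all, 73.3, belonged to the sulfotransferase *Sult2a3*, at 51.5 ± 33.1 CPM.

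**Figure D1:**
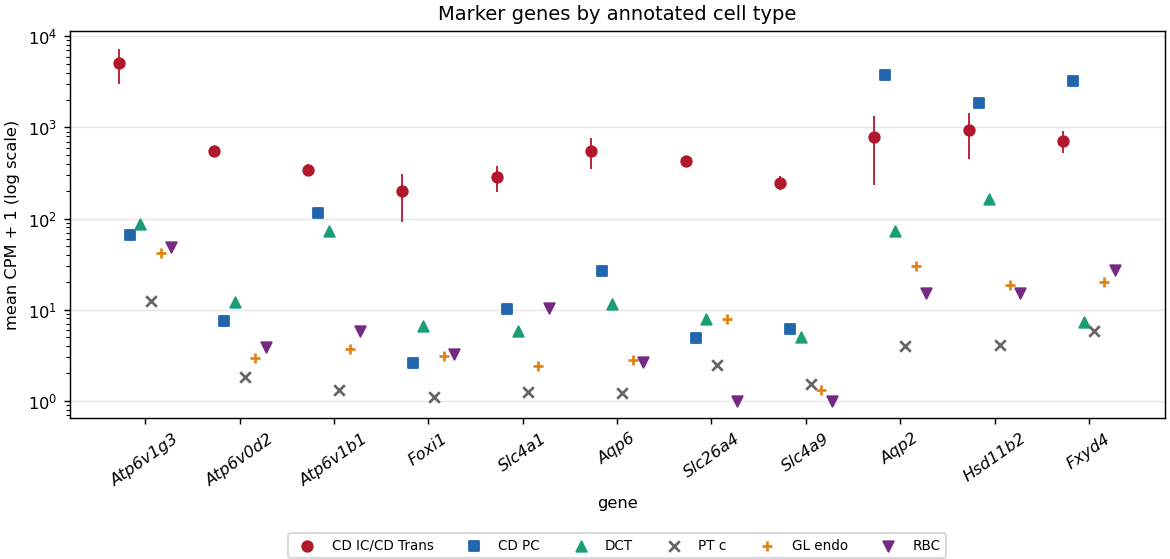
Mean CPM + 1 of 11 genes (log axis) in CD IC/CD Trans cells, principal cells (CD PC), DCT, convoluted proximal tubule (PT c), glomerular endothelium (GL endo) and cells annotated RBC, as means over libraries. Bars show the SD over 5 libraries for CD IC/CD Trans, where *Atp6v1g3* averaged 5149 CPM, while *Aqp2*, *Hsd11b2* and *Fxyd4* were highest in CD PC.

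The promoter of *Atp6v1b1*, which encodes the B1 subunit whose human counterpart is mutated in renal tubular acidosis with deafness, is shown because of 9 marker genes found in the table (14 looked up, 10 promoters in all, since *Hmx2* has 2) it alone held TGTTTAC, a forkhead-type motif, on either strand. Among all 32851 promoters of the same length, from 250 bases before to 50 after the start, 1199 (3.65%) held these letters. The sequence is RefSeq's, GRCm38.p6, chr6:83742859-83742985, plus strand, and lies wholly upstream of the start of the gene. The motif, in capitals, begins 98 bases before the start:
Atp6v1b1: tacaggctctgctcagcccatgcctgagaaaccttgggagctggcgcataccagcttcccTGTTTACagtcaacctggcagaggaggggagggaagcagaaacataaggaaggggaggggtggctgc
*Atp6v1b1* itself had 342 ± 49.5 CPM in CD IC/CD Trans and 115 CPM in CD PC. The match is a description of letters and says nothing of binding.

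The V-ATPase genes differed by subunit class. All 5 subunit genes known to be enriched in intercalated cells (*Atp6v1b1*, *Atp6v1g3*, *Atp6v1c2*, *Atp6v0a4* and *Atp6v0d2*) were highest in these cells of all types, 3 of them by more than 5 times. Of 17 subunit genes found in most cells, 10 were highest here, none by more than 5 times. *Atp6v0c*, the proteolipid of the membrane sector, was steady across libraries, from 2548 CPM in WT mix to 2891 in KO female, against 811 CPM in PT c.

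Of 24 transport and acid-base genes, 11 were highest in CD IC/CD Trans. *Car2*, the cytosolic carbonic anhydrase, had 2162 ± 549 CPM against 1123 CPM in CD PC. *Car12*, a membrane-bound carbonic anhydrase, had 645 ± 97.6 CPM against 192 CPM in PT c. The ammonia transporters divided, since *Rhbg* had 533 ± 29.0 CPM against 254 CPM in CD PC and *Rhcg* 389 ± 34.3 CPM against 423 CPM in CD PC. *Kcnma1*, a potassium channel, had 0 UMIs in all 5 libraries. Of 19 transcription factors and Notch genes, *Tfcp2l1*, *Foxi1*, *Hmx2* and *Dmrt2* were highest here, and *Tfcp2l1* (1086 ± 165 CPM) was also high in CD PC (759 CPM).

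Transcripts of other cell types were present at uneven levels. None of 15 principal cell genes was highest in these cells, but *Aqp2*, the vasopressin-regulated water channel, still had 785 ± 550 CPM, against 3774 CPM in CD PC. Lists of podocytes (9 UMIs), fibroblasts and smooth muscle (26), endothelium (44) and myeloid and T cells (99) together gave few UMIs. Distal tubule genes were abundant and uneven: *Klk1*, kallikrein 1, had 9773 ± 4912 CPM, with 13687 CPM in DCT and 925 CPM in cells annotated RBC, and *S100g*, calbindin-D9k, had 16080 ± 11913 CPM, with 14411 CPM in DCT and 1386 CPM in RBC. *Klk1* UMIs were in 70.1% of the cells and in 55.7% of RBC, whose median depth was 1910 UMIs. *Umod*, the uromodulin of the loop of Henle, was in 55.4% of the cells, near the 54.0% of RBC. After thinning it was in 24.6% against 39.5%, so the pooled share was not above that of a type that should lack the gene. *Slc4a1*, by contrast, was in 50% of the cells, against 1.60% of RBC. These shares pool libraries in unlike proportions. RBC numbered 427, 160 and 234 cells in KO female, KO male and WT female, but 41 in KO mix and 11 in WT mix. The shares were not compared within libraries.

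Principal cell transcripts were concentrated in a subset of cells. At least 1 *Aqp2* UMI was in 48.0% of the cells, against 91.2% of CD PC (median depth 3006 UMIs) and 4.57% of glomerular endothelium, and after thinning in 28.2%, 80.2% and 2.13%. Classes were set after the values had been seen and are given without a test: 130 of 354 cells (36.7%, exact 95% interval 31.7% to 42.0%) held 3 or more *Aqp2* UMIs, 40 held 1 or 2, and 184 held 0. The share of cells with 3 or more was 31.7%, 22.4% and 45.7% in KO female, KO male and KO mix, and 36.4% and 40.3% in WT female and WT mix, with means of 33.3% ± 11.7 in KO (n = 3) and 38.3% ± 2.80 in WT (n = 2). The ranges of the genotypes overlapped. The class with 3 or more had a median of 7119 UMIs against 3765 UMIs in the class with 0, and CD PC had 3006 UMIs. Its median doublet score was 0.128 against 0.160 in the class with 0, and CD PC had 0.109. Of the 130 cells, 126 also held 3 or more *Atp6v1g3* UMIs, whereas 11 of 445 CD PC cells did.

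The 2 classes differed in whole groups of genes. Of the 15 principal cell genes, 14 had at least 20 UMIs. All 14 were higher in the class with 3 or more *Aqp2* UMIs in each of 5 libraries. For *Aqp2* itself this was fixed in advance, since its count set the classes. Over all 8458 genes with that many UMIs, 977 were higher and 375 lower in all 5. *Hsd11b2*, which protects the mineralocorticoid receptor from glucocorticoids, had 1382 CPM against 92.2 CPM in the class with 0, and 1870 CPM in CD PC. In single libraries it had 926 to 2619 CPM in the class with 3 or more and 58.9 to 161 CPM in the class with 0. *Fxyd4*, a regulator of the sodium pump, had 1301 against 35.7 CPM. The vasopressin receptor *Avpr2* had 98.1 against 6.91 CPM, and the sodium channel subunit *Scnn1g* 291 against 54.2 CPM. *Notch2*, a Notch receptor, had 76.7 against 8.07 CPM, with 103 CPM in CD PC, and the Notch target *Hes1* had 431 against 158 CPM, with 448 CPM in CD PC.

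Intercalated genes stayed present in the *Aqp2*-positive class, and the lists differed in direction. All 5 enriched V-ATPase genes and 8 of 14 receptors and other intercalated genes were lower in each of 5 libraries, and none of these was higher in all 5. Of 22 transport and acid-base genes with at least 20 UMIs, 4 were higher and 4 lower in all 5 libraries (median ratio 1.03). Of 16 transcription factors and Notch genes, a list that shares *Gata3* and *Elf5* with the principal cell list, 7 were higher and 1 lower (median ratio 1.86). The median ratio was 1.13 over all genes. *Rhcg* was higher in the *Aqp2*-positive class in 5 of 5 libraries, at 463 against 283 CPM over all cells. *Atp6v1g3* had 2076 to 4595 CPM in the class with 3 or more *Aqp2* UMIs and 3790 to 10178 CPM in the class with 0, against a CD PC mean of 65.2 CPM. *Slc26a4* was lower in the *Aqp2*-positive class in 5 of 5 libraries, at 269 against 668 CPM over all cells. *Slc4a1* differed less, at 243 against 296 CPM, and was higher in the *Aqp2*-positive class in WT mix. *Foxi1* had 153 against 214 CPM and was lower in 5 of 5 libraries. Of the 3 genes proposed for transitional cells, *Sec23b* (80.1 ± 18.6 CPM, against 58.3 CPM in CD PC) and *Syt7* (17.5 ± 14.6 CPM, against 0.88 CPM) were highest in this cluster of all types. *Parm1* had 54.1 ± 12.9 CPM, against 9.82 CPM in CD PC. None of the 3 was higher in the *Aqp2*-positive class in all 5 libraries. The part of depth and of cell pairs caught in 1 droplet in these differences was not tested.

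**Figure D2:**
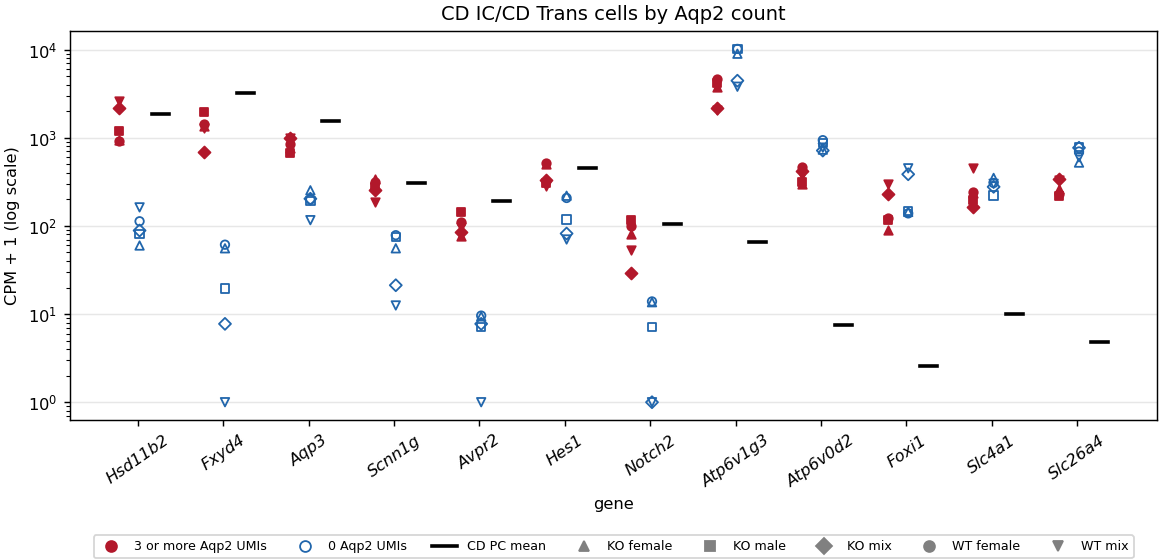
CPM + 1 (log axis) of 12 genes in CD IC/CD Trans cells with 3 or more *Aqp2* UMIs (filled) and with 0 *Aqp2* UMIs (open), by library, with the CD PC mean as a bar. *Hsd11b2* and *Fxyd4* of the *Aqp2*-positive class lie above every open point of the same gene, while *Atp6v1g3* of both classes lies far above the CD PC mean of 65.2 CPM.

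To separate acid- and base-secreting cells, a type A gate (at least 2 UMIs over *Slc4a1*, *Aqp6*, *Slc26a7* and *Dmrt2* and 0 over the type B genes) and a type B gate (the reverse, with *Slc26a4*, *Slc4a9*, *Insrr* and *Hmx2*) were applied. They held 85 and 115 cells. A further 121 cells had UMIs on both sides, 10 fell below the gates, and 23 had none of the 8 genes. Of the gated cells, 11 of type A and 4 of type B were at the limit of 2 UMIs. Cells with both sides were deeper, with a median of 6909 UMIs, against 4190 in the type A gate and 5251 in the type B gate, and their median doublet score of 0.141 lay between 0.147 and 0.136.

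Single gene pairs differed in how often they met in a cell. *Slc4a1* and *Slc26a4*, the exchangers that define the types, were both counted in 31 cells, *Slc4a1* alone in 146, *Slc26a4* alone in 119 and neither in 58. *Aqp6* and *Slc4a9* met in 105 cells, which is 52.0% of those with *Aqp6*. *Slc4a1* and *Slc4a9* met in 92 cells, 52.0% of those with *Slc4a1*, so *Slc4a9* was not confined to cells without type A genes. In the cells with UMIs on both sides, 100 had more type A than type B UMIs and 18 the reverse. Of these 121 cells, *Slc4a9* was counted in 106 and *Slc26a4* in 36. There *Slc4a1* stood at 351 CPM, against 562 CPM in the type A gate, and *Slc26a4* at 180 CPM, against 1092 CPM in the type B gate.

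Cells of the type A gate were then compared with cells of the type B gate, with 4 libraries each giving a sum for both gates. KO female, with 6 type A cells, was left out. By edgeR's quasi-likelihood test with the library as a block, 58 of 1388 genes (4.18%) differed at an adjusted p under 0.05, 24 higher (1.73%) and 34 lower (2.45%) in the type A gate. DESeq2 called 26 and limma-voom 53, and all 58 kept their direction in both. Without WT mix the count was 29, and without KO male 37. All 4 libraries lay on the same side for 21 of the higher and 34 of the lower genes. Over all 1388 genes this held for 161 higher and 155 lower. The calls were made from the same 4 libraries, so this count is no separate check. The 8 gate genes were not tested. Values from here on are CPM with TMM scaling.

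The genes with the largest fold changes toward the type A gate encode proteins of different kinds. *Kit* had 357 CPM in KO male, 486 in KO mix, 416 in WT female and 341 in WT mix in the type A gate, against 20.7, 12.9, 0 and 16.1 CPM in the type B gate of the same libraries. Every library showed *Kit* in type A and nearly none in type B (log2 fold change 5.08, SE 0.42, edgeR adjusted p = 2.5e-08). *Adgrf5*, an adhesion G protein-coupled receptor, had 415, 816, 700 and 1228 CPM in the type A gate, against 72.3, 25.7, 20.9 and 96.9 CPM in the type B gate (log2 fold change 4.00, SE 0.31). *Mme*, the membrane peptidase neprilysin, had 505 to 951 CPM in the type A gate, against 62.0 to 210 CPM in the type B gate (2.71, SE 0.29). *Cryab*, a small heat shock protein, had 737 to 1597 CPM in the type A gate, against 72.3 to 303 CPM (2.44, SE 0.35). These 4 genes were chosen for large fold changes with all libraries on the same side, so the gap between their gates is no separate check.

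*Defb1*, an antimicrobial beta-defensin, was higher in the type A gate within every library, although it varied more between libraries than between gates. It had 13912 CPM in KO male, 4110 in KO mix, 7556 in WT female and 3328 in WT mix in the type A gate, against 5290, 1333, 3808 and 1598 CPM in the type B gate (log2 fold change 1.27, SE 0.17). Smaller rises were found for *Trak1*, an adaptor of mitochondrial transport (1.38, SE 0.32), *Apela*, a peptide ligand of the apelin receptor (1.14, SE 0.25), *Ly6e* (1.09, SE 0.28) and the kinase gene *Cdkl1* (0.93, SE 0.21).

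Of 10 principal cell genes tested, 4 were called higher in the type A gate and none lower. Over all 1388 genes, 1.73% were called higher and 2.45% lower. The 4 were *Npnt*, an extracellular matrix protein (log2 fold change 1.24, SE 0.26), *Aqp2* (1.20, SE 0.20), the sodium channel subunit *Scnn1b* (0.99, SE 0.28) and *Hsd11b2* (0.54, SE 0.15). Fold changes in the list were positive for 7 genes and negative for 3, against 728 and 660 over all 1388 genes. *Kcne1* was lower in the type A gate in all 4 libraries (-0.96, SE 0.31) without passing the test. *Aqp2* had 458 CPM in KO male, 1976 in KO mix, 580 in WT female and 3301 in WT mix in the type A gate, against 103, 1390, 223 and 1130 CPM in the type B gate. The type A value was the higher one within each library. Pooled over all 5 libraries, KO female included, the share of cells with 3 or more *Aqp2* UMIs was 34.1% in the type A gate and 30.4% in the type B gate. In KO mix it was 38.1% in type A and 46.3% in type B, while type A had the larger share in every other library. Without cells of 3 or more *Aqp2* UMIs, 17 of 671 genes were called, all of them among the 58.

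The genes with the largest fold changes toward the type B gate were separated as widely. *Igfbp5*, which binds insulin-like growth factors, had 28.6, 31.4, 32.8 and 40.9 CPM in the type A gate of KO male, KO mix, WT female and WT mix, against 455, 1036, 717 and 646 CPM in the type B gate (log2 fold change -4.34, SE 0.29, edgeR adjusted p = 1.5e-09). *Emb*, embigin, a partner of monocarboxylate transporters, had 0 to 62.7 CPM in the type A gate, against 397 to 620 CPM in the type B gate (-3.99, SE 0.38). The gates were far apart in both genes. *Jag1*, a Notch ligand, had 85.8, 62.7, 43.7 and 13.6 CPM in the type A gate, against 403, 167, 390 and 274 CPM in the type B gate (-2.59, SE 0.36). It was the only one of 6 transcription factor and Notch genes tested that was called, while 2.45% of all 1388 genes were called lower.

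The carbonic anhydrases *Car15*, anchored to the outer membrane, and *Car12* were both lower in the type A gate. *Car15* had 729, 988, 1170 and 750 CPM there, against 4453, 2723, 7115 and 2470 CPM in the type B gate (log2 fold change -2.12, SE 0.19). *Car12* had 515, 424, 405 and 587 CPM in the type A gate, against 1209, 1474, 1281 and 1711 CPM in the type B gate (-1.56, SE 0.15). These were the calls among 10 transport and acid-base genes tested. Other genes lower in the type A gate were *Scg5*, a chaperone of prohormone convertase (-1.83, SE 0.22), the protease inhibitor *Spink8* (-1.83, SE 0.22), the G protein regulator *Rgs2* (-1.73, SE 0.31), *Kctd12* (-1.72, SE 0.37), *Aamdc* (-1.64, SE 0.33), *Hepacam2* (-1.34, SE 0.25) and the stress-response genes *Fosb* (-1.62, SE 0.34) and *Atf3* (-1.37, SE 0.26). *Fosb* and *Atf3* were the called members among 20 immediate early and heat shock genes, while 2.45% of all 1388 genes were called lower. Of the 20, 14 had negative and 6 positive fold changes, against 660 and 728 over all 1388 genes. All 4 libraries were lower in the type A gate for 7 of them. They were higher for 2, *Hspa1a* (0.67, SE 0.26) and *Hspa1b* (0.89, SE 0.32), neither past the test. *Umod* was lower in the type A gate as well (-1.74, SE 0.27), with 173 to 426 CPM in the type A gate, against 760 to 1818 CPM in the type B gate. RBC had 836 CPM of *Umod* (raw), and the part of free RNA in this difference was not tested.

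Pump subunits leaned to the type B gate. All 5 enriched V-ATPase genes had negative fold changes (median -0.38, against 0.02 over all 1388 genes), and *Atp6v1g3* passed the test, with 6692, 3529, 6080 and 2578 CPM in the type A gate, against 13131, 4332, 12037 and 5732 CPM in the type B gate (log2 fold change -0.85, SE 0.17, edgeR adjusted p = 0.0044). Of 11 further subunit genes, *Atp6ap2*, the prorenin receptor, passed (-0.69, SE 0.15). The share called lower in the type A gate over all 1388 genes was 2.45%. The haemoglobin genes *Hbb-bs* (3.52, SE 0.28), *Hbb-bt* (2.95, SE 0.32) and *Hba-a1* (2.58, SE 0.23) were also called higher in the type A gate. They had 0 UMIs in both gates of KO mix and WT mix, and a single type A cell held 1759 haemoglobin UMIs in KO male and 900 in WT female. Without cells of 100 or more haemoglobin UMIs, 47 of 1254 genes were called, 44 of them among the 58, and *Hba-a1* stood at -0.30.

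**Figure D3:**
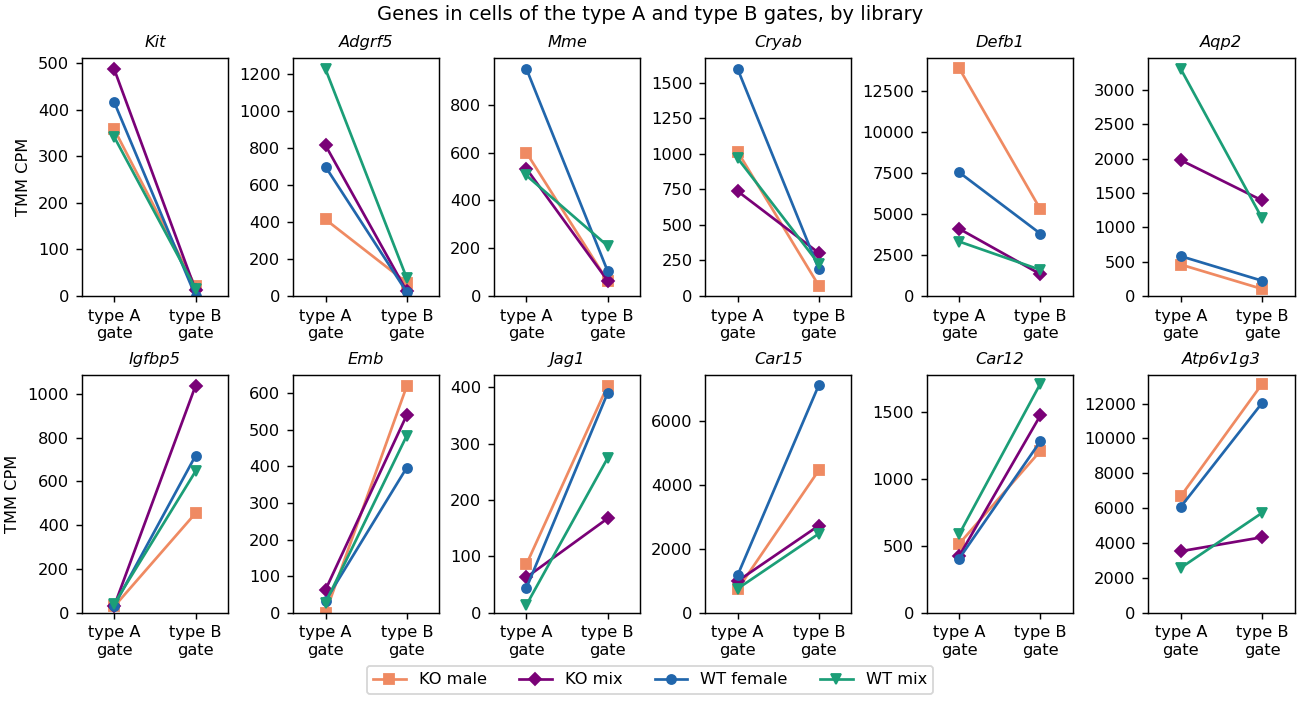
TMM CPM of 12 genes in cells of the type A gate (left) and type B gate (right) of KO male, KO mix, WT female and WT mix, with a line for each library. All lines fall from type A to type B for *Kit*, *Adgrf5*, *Mme*, *Cryab*, *Defb1* and *Aqp2* and rise for *Igfbp5*, *Emb*, *Jag1*, *Car15*, *Car12* and *Atp6v1g3*.

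The first question of the genotype was whether knockout kidneys held as many of these cells. The cluster made up 2.14%, 2.73% and 2.58% of the cells of KO female, KO male and KO mix, against 3.47% and 1.85% of those of WT female and WT mix. The 2 wild type values enclosed the 3 knockout values. Means were 2.48% ± 0.307 in KO (n = 3) and 2.66% ± 1.14 in WT (n = 2), with p = 0.90 in a two-sided exact permutation test, whose smallest possible p is 0.1. The log2 fold change was -0.10 (SE 0.44) by edgeR's quasi-likelihood test over the 19 types (adjusted p = 0.89), and 0.42 without WT female.

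The balance of the gates was next. Cells of the type B gate were 13 of 19 gated cells in KO female (68.4%), 17 of 31 in KO male (54.8%) and 41 of 62 in KO mix (66.1%), against 23 of 44 in WT female (52.3%) and 21 of 44 in WT mix (47.7%). All 3 knockout shares lay above both wild type shares, but their intervals from so few cells were wide (43.4% to 87.4% for KO female, exact 95%). With every cell thinned to 1000 UMIs that order was lost, with a lowest KO share of 50% and a highest WT share of 51.4%. The difference of 13.1 percentage points between 63.1% ± 7.27 in KO (n = 3) and 50% ± 3.21 in WT (n = 2) had p = 0.20 in the two-sided exact permutation test. It ranged from 7.81 to 22.7 points over the alternatives tried for the share. The gate of *Slc4a1* alone against *Slc26a4* alone was not among them. That gate held 13 *Slc26a4* and 26 *Slc4a1* cells in KO female, 17 and 23 in KO male, and 43 and 30 in KO mix. WT female had 22 and 36, and WT mix 24 and 31. There the share of neither KO female nor KO male lay above both wild type shares.

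No gene passed the genotype test within the cluster: by edgeR's quasi-likelihood test 0 of 5879 genes (0%) had an adjusted p under 0.05, with 35 at an unadjusted p under 0.05. DESeq2 gave 0 (6 unadjusted) and limma-voom 0 (41 unadjusted). On simulated counts of this design the same test recovered 10.4% of 2-fold, 62.7% of 4-fold and 90.9% of 8-fold changes. Most 2-fold changes would thus have been missed with these 5 libraries. With the sex composition (female, male or pooled) as a block, which leaves 1 residual degree of freedom, 7 genes passed. These 7, chosen by that result and not by the rule for named genes, were *Calb1*, *Slc8a1*, *S100g*, *Kl*, *Malat1* and *mt-Nd4l*, higher in KO, and *Tmsb4x*, lower in KO. With the run as a block there were 0, with 223 at an unadjusted p under 0.05.

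None of the 8 gate genes passed the genotype test. All 4 type A gate genes had negative fold changes (median -0.46) and all 4 type B gate genes positive ones (median 0.24), with a median of 0.02 over all genes. *Slc26a7*, a chloride-bicarbonate exchanger of type A cells, had 33.1, 14.05 and 23.1 CPM in KO female, KO male and KO mix, against 35.6 and 82.97 CPM in WT female and WT mix (log2 fold change -1.18, SE 0.51, unadjusted p = 0.049). *Slc4a1* had 317, 239 and 226 CPM in KO, against 277 and 422 CPM in WT (-0.41, SE 0.34). *Aqp6* had 576, 492 and 420 CPM in KO, against 512 and 901 CPM in WT (-0.51, SE 0.37). In these 3 type A genes WT mix was the highest library, and in *Slc4a1* and *Aqp6* WT female lay within the range of KO. *Slc26a4* had 420, 576 and 469 CPM in KO, against 416 and 396 CPM in WT (0.26, SE 0.32). Over all genes, every KO library lay above both WT libraries in 291 (4.95%) and below them in 312 (5.31%). Among the gate genes this held for *Slc26a4* above and *Slc26a7* below.

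*Atp6v1g3* (0.35, SE 0.61) and *Foxi1* (-0.29, SE 0.52) followed the run more than the genotype. *Fth1*, the ferritin heavy chain (-0.06, SE 0.45), and *Slc25a39*, a mitochondrial carrier (-0.30, SE 0.63), both linked to iron handling, had an adjusted p of 0.99975 by edgeR's quasi-likelihood test, as did every gene named in this comparison. Of 14 principal cell genes, 3 had positive fold changes (median -0.24), and of 15 transcription factors and Notch genes, 3. Over all 5879 genes, 3121 were positive.

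The genes of lowest p in each direction did not pass the test. The 5 higher in KO were *Slco1a6*, an organic anion transporter (log2 fold change 3.68, SE 1.06), the stress-response factor *Atf6* (1.16, SE 0.36), *C2cd5* (1.96, SE 0.64), the acetyl-CoA carboxylase *Acacb* (1.33, SE 0.44) and the cell cycle inhibitor *Cdkn1b* (1.06, SE 0.36). *Slco1a6* had 19.5, 42.1 and 36.9 CPM in KO, against 0 and 7.54 CPM in WT. The 5 lower in KO were *Tmem150c* (-1.60, SE 0.57), *Col26a1* (-1.09, SE 0.39), *Ctso* (-0.97, SE 0.36), *Anxa2* (-1.26, SE 0.48) and *Dnajc9* (-1.25, SE 0.49).

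Genes of the distal convoluted and connecting tubule, which are markers of a neighbouring cell type, were higher in KO in 5 of 6 cases (median 0.91), none past the test. Fold changes were positive for 3121 of all 5879 genes. *Calb1*, calbindin-D28k, had 1251, 1527 and 734 CPM in KO, against 709 and 551 CPM in WT, and *Slc8a1*, a sodium-calcium exchanger, had 862, 1275 and 522 CPM in KO, against 513 and 370 CPM in WT. In both genes KO mix was the lowest KO library and still above WT. The summed raw CPM of the whole list of 9 genes was 35023, 50425 and 11465 in KO, against 32033 and 8920 in WT. Its part in the genotype comparison was not tested.

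*Fame* was detected in the cluster of both genotypes. The knockout leaves the end of the transcript that is read in place, so these counts do not check the genotype. Relative to the raw UMI total it had 122, 199 and 130 CPM in KO female, KO male and KO mix, against 173 and 120 CPM in WT female and WT mix. The genotypes overlapped, with a log2 fold change of 0.10 (SE 0.38, adjusted p = 0.99975 by edgeR's quasi-likelihood test) and p = 0.90 in the two-sided exact permutation test. The sign turned to -0.20 without KO male and -0.18 without WT mix.

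With 149 ± 35.7 CPM (SD, n = 5), *Fame* ranked 7 of 19 types in these cells. Of the 6 types above, PE had no library with at least 20 cells and Juxt ldl LOH had 2. CD PC (266 ± 90.4 CPM) and DCT (239 ± 64.9 CPM) were higher, PT c (82.2 ± 29.0 CPM) lower, and the spreads of the neighbours in rank overlapped. *Fame* UMIs were in 47.7% of the cells and, after thinning, in 11.9%, against 3.40% in glomerular endothelium and 8.93% in RBC. Within the cluster, *Fame* had 148 raw CPM in the type A gate and 155 in the type B gate, pooled over all 5 libraries. In the 4 libraries of the gate test, its TMM means were 194 CPM in type A and 219 CPM in type B. Type B was higher in all 4 (log2 fold change -0.17, SE 0.25, not past the test). In raw CPM, *Fame* had 180 CPM (Poisson 95% interval 157 to 204) in cells with 3 or more *Aqp2* UMIs. In cells with 0 it had 104 CPM (83.4 to 127). The former class was higher in 5 of 5 libraries, and the intervals cover counting error only.

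**Figure D4:**
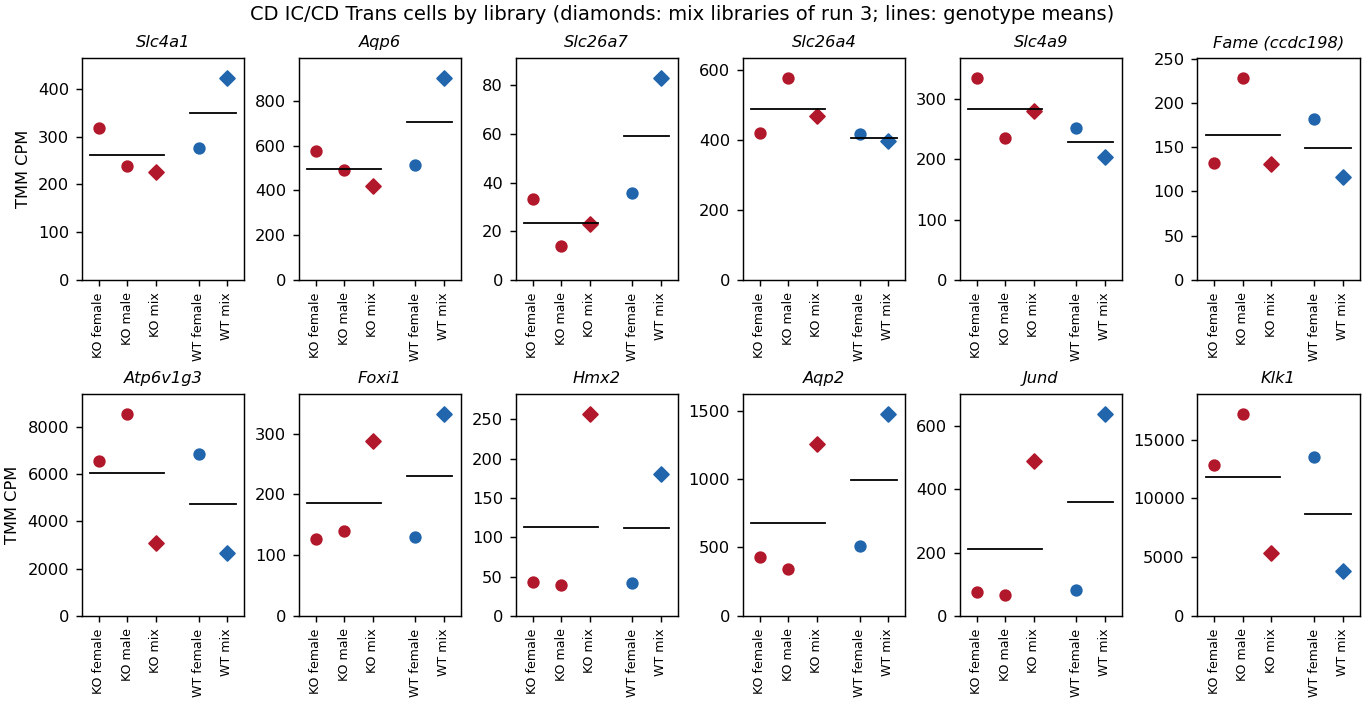
TMM CPM of 12 genes in the CD IC/CD Trans cells of each library, KO in red and WT in blue, with diamonds for the mix libraries of run 3 and lines at the genotype means. *Slc26a4* of all 3 KO libraries lies above both WT libraries, and *Foxi1*, *Hmx2*, *Aqp2* and *Jund* are higher, *Atp6v1g3* and *Klk1* lower, in both mix libraries.

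The genotype effect in these cells was also set against that in CD PC, the type most like them. By edgeR's quasi-likelihood test of the interaction, with the library as a block, 0 of 6464 genes (0%) passed, with 306 at an unadjusted p under 0.05. DESeq2 gave 0 (35 unadjusted) and limma-voom 0 (346 unadjusted). Without KO female 5 genes passed, without WT mix 2, without KO mix or WT female 1 each, and without the filter on low counts 9. The lowest p values above zero were those of *Plac8* (difference of log2 fold changes 2.58, SE 0.55), *Slc12a1* (1.59, SE 0.37), *Calb1* (0.91, SE 0.21), *Pvalb* (3.77, SE 0.89) and *Slc22a8* (2.04, SE 0.52), and below zero *Aqp4* (-1.73, SE 0.40), *S100a6* (-2.67, SE 0.62), *Aqp6* (-2.77, SE 0.67), *Tubb5* (-1.96, SE 0.53) and *Ranbp3l* (-1.97, SE 0.57), with adjusted p from 0.27 to 0.63. *Slc12a1*, *Calb1* and *Pvalb* are markers of the loop of Henle and the distal tubule. *Aqp6* was low in CD PC, with 11.4, 65.3 and 38.6 CPM in KO female, KO male and KO mix, against 9.44 and 5.48 CPM in WT female and WT mix. In CD IC/CD Trans this fit had 594, 498 and 429 CPM in KO, against 527 and 921 CPM in WT. The genes that passed without KO female included the haemoglobin genes *Hbb-bs*, *Hbb-bt* and *Hba-a1*.

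More genes separated the libraries by run and pooling than by genotype. Both mix libraries lay above the 3 libraries of run 2 in 1566 of 5879 genes (26.6%) and below them in 1596 (27.1%), given without a test because the run and the pooling of sexes cannot be told apart. Of 25 immediate early and heat shock genes, 19 were above (median log2 ratio 1.16). *Jund* had 490 CPM in KO mix and 637 in WT mix, against 73.9, 66.7 and 82.7 CPM in KO female, KO male and WT female. *Egr1* had 704 and 626 CPM in the mix libraries, against 147 to 241 CPM in the others. Of 15 transcription factors and Notch genes, 9 were above, among them *Foxi1* (289 and 332 CPM, against 126 to 140 CPM), *Hmx2* (256 and 181 CPM, against 38.6 to 42.8 CPM) and *Gata2* (166 and 162 CPM, against 42.1 to 87.5 CPM).

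Other intercalated lists were mixed as well. Of 15 V-ATPase genes of most cells, 9 were below in the mix libraries and 2 above, and of the 5 enriched V-ATPase genes 2 were below and 1 above. Of 14 receptors and other intercalated genes 7 were below and none above. Of 20 transport and acid-base genes 7 were above and 3 below (median log2 ratio 0.14). *Atp6v1g3* had 3069 and 2674 CPM in KO mix and WT mix, against 6558, 8540 and 6838 CPM in KO female, KO male and WT female. *Defb1* had 2014 and 1946 CPM in the mix libraries, against 6746 to 9095 CPM in the others. *Aqp2* went the other way, with 1256 and 1475 CPM, against 344 to 509 CPM. The mitochondrial share given above moved with these differences, with 9 of 13 mitochondrially encoded genes above in the mix libraries. Their part was not tested.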

How the data were processed

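Single-cell 3′ RNA libraries (10x Genomics, v3) were processed by the authors with Cell Ranger 4.0.0 on mm10 and Seurat 3.2.2.9001. The deposited matrix holds raw UMI counts of 17389 genes in 14197 cells. The authors had removed genes seen in fewer than 3 cells and cells with fewer than 1000 UMIs or more than 50% mitochondrial UMIs. The deposited annotation gives per cell the percent of mitochondrial UMIs, the Scrublet doublet score, the run and the cell type, named by the authors after integration. Genotypes come from the labels.

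Counts were summed per library over the CD IC/CD Trans cells (gates with fewer than 10 cells in a library left out), and tested with edgeR 4.0.16 (two-sided quasi-likelihood test, TMM, robust, default expression filter), adjusted by Benjamini-Hochberg over all genes tested at 0.05. Alternatives were DESeq2 1.42.0, limma-voom (limma 3.58.1), other filters on genes and cells, blocks, gates and leaving out each library. Software was R 4.3.3 and Python 3.11.15 with scipy 1.17.1, numpy 2.4.6, matplotlib 3.10.9 and pandas 2.3.3, and the gene tests were tested on simulated data.

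Members, gene lists and gates were chosen with earlier results of these data known. Genes named were, for genotype, those past the threshold or else the 5 of lowest p per direction plus *Fame*, *Fth1*, *Slc25a39*, *Foxi1*, *Atp6v1g3*, *Slc4a1* and *Slc26a4*; for the gates, the 12 highest and 12 lowest called with all libraries on the same side; for levels, the 20 largest ratios; for the interaction, the 5 of lowest p per direction; and members of the lists. Genes named by another route are said to be so. The libraries were not paired by number in the labels. Deviations from the genotype means correlated at 0.69 between KO mix and WT mix and at 0.49 between KO female and WT female, values tied to each other by the 2 wild type libraries.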

Additional observations from a re-analysis of the deposited data

Results flagged for a closer look

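Of 64 groups of 4 values tested for a value far from the rest, 1 stood out, and chance marks about 1 in 20 such groups. *Umod* in the type B gate of KO male had 1818 CPM, while the other 3 libraries had 760 to 884 CPM, a gap of 0.882 of the whole range (critical value 0.829).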

How the results depend on the processing

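The genotype test within the cluster gave 0 genes under every alternative except the sex composition as replicate block, which gave 7, and 0 without each library in turn. The 58 genes of the gates became 88 with no filter on low counts, 26 with DESeq2, 36 with at least 10 counts in every sum, 35 at a threshold of 0.01, 21 with cells of at most 25% mitochondrial UMIs (2 libraries left, 1 residual degree of freedom), 23 with doublet scores of at most 0.2, 11 with no replicate block for the library, 133 with *Slc4a1* alone against *Slc26a4* alone, 17 without cells of 3 or more *Aqp2* UMIs, and 29 to 74 without each library in turn (29 without WT mix, 37 without KO male). Of these 58 genes 57 kept their direction under the *Slc4a1* and *Slc26a4* gate and, of 55 still tested, 54 without cells of 100 or more haemoglobin UMIs, *Hba-a1* turning to -0.30. The interaction gave 9 genes with no filter and 0 to 5 without each library. The gate limited to cells with 0 *Aqp2* UMIs could not be fitted, since 1 library had enough cells. The 2 exclusions by haemoglobin and *Aqp2* were chosen after seeing the data. *Fame* turned to -0.23 with the sex composition as replicate block and ranged from -0.20 to 0.50 without each library. The share of the cluster ranged from -0.48 to 0.42, *Atp6v1g3* from -0.18 to 1.21, *Foxi1* from -0.81 to 0.50, *Slc25a39* from -1.04 to 0.69 and *Fth1* from -0.37 to 0.35 (log2, KO against WT), and *Fth1* turned to 0.066 with the run and 0.049 with the sex composition as replicate block. The cause of these changes was not tested. With 49 to 92 cells in each of 5 libraries, the genotype test recovered 10.4% of simulated 2-fold changes.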
